A study of Mus musculus with 12 samples.

Results

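The genes described here encode the redox defence of the cell and its supply of NADPH, 34 in all: the oxidant-sensing regulators, the enzymes of quinone and heme metabolism, glutathione synthesis, the thioredoxin system, peroxiredoxins, peroxidases, superoxide dismutases, glutathione transferases and the pentose phosphate pathway. They were found by matching a list of 34 gene symbols to the gene names of the expression tables, where all 34 of them are among the 47643 genes listed, and all 34 are among the 16013 genes with enough counts to be tested. The libraries were made by poly(A) RNA sequencing of pancreatic tumor pieces. The tumors were of KPC4662, a cell line derived from a mouse pancreatic ductal adenocarcinoma, and the 6 Old tumor and 6 Young tumor libraries are told apart only by the age group of the mice. The ages themselves, the strain, and whether any mouse gave more than 1 piece are not in the labels used here, so the p-values below measure the spread between these pieces.

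Oxidants arise in every cell from respiration and from oxidases. Superoxide dismutases and catalase act on them, as do 2 thiol systems, glutathione and thioredoxin. Both systems draw their electrons from NADPH, which the oxidative branch of the pentose phosphate pathway and malic enzyme regenerate. The transcription factor NRF2, encoded by Nfe2l2, raises the transcription of many of these genes when its inhibitor KEAP1 is modified by electrophiles or oxidants, and NRF2 binds DNA at the antioxidant response element. In pancreatic cancer, NRF2 is known to hold oxidants low and to favour tumor growth.

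The core letters of that element, TGACNNNGC, were searched on both strands in the window that runs from 250 bases before to 50 bases after each annotated gene start (RefSeq, GRCm38.p6). A promoter was given for 28 of the 34 genes, and 9 of those 28 genes (32.1%) held a match, against 3781 of 27025 genes with a promoter in the same table (14.0%). The stretches with a match are printed because they show, gene by gene, the letters that fit the core of the element. Capitals mark the match and 10 bases stand on each side of it, read 5′ to 3′ on the strand of the gene.
Nfe2l2: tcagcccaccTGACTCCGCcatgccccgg
Gclm: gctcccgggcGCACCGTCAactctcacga
Txnrd1: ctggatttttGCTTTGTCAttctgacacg
Srxn1: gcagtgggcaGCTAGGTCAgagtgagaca
Prdx1: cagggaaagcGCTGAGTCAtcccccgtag
Sod1: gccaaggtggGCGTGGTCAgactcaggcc
G6pdx: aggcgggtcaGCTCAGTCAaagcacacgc
Pgd: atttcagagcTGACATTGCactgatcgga
Me1: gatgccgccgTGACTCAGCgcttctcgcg
The matches of Nfe2l2, Pgd and Me1 read as spelled above and the other 6 as the reverse complement. Those of Prdx1 (printed stretch chr4:116685456-116685484, plus strand) and Me1 (printed stretch chr9:86695902-86695930, minus strand) also hold the AP-1 letters TGACTCA on one of the strands. The matches of Srxn1 and Pgd began at bases 29 and 4 counted from the annotated start, so inside the transcript, and the others began before it. A match is a description of the letters and not a site shown to be bound. Pgd had its match in the window of 1 annotated start and none in that at chr4:149166656-149166955. Txnrd1 and Me1 also had windows without a match. The windows of Nqo1 and Slc7a11 held none, and no promoter was given for Gclc, Hmox1, Gsta4, Gsr, Prdx6 and Sod3. No match was found in the windows of Txn1 and Prdx2, the genes that passed the test below, which says only that these letters are not in those windows.

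Libraries held 17.8M to 24.1M counts, with 22.6 ± 2.41M in Old tumor and 21.9 ± 1.13M in Young tumor libraries (SD, n = 6 per group; exact permutation p = 0.528, two-sided). The labelled cell type is epithelial, and the epithelial keratins Krt8, Krt18 and Krt19 averaged 1585, 1727 and 1850 TPM (a level per transcript length, scaled to a fixed sum per library). The pieces also held markers of fibroblasts, macrophages and vessels, so in these bulk samples fewer cells of a type and less RNA per cell cannot be told apart for any gene below. Old tumor 1 lay farthest out on the first principal component (-55.0) and Old tumor 5 on the second (43.9). They were not alone: Old tumor 4 stood at 41.7 on the first, and Young tumor 2 lay farthest out on the third (-53.5). Values of the genes that Old tumor 1 and Old tumor 5 moved most are given below without them, and every library was also left out in turn.

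By level per transcript length, the antioxidant enzymes of the cytosol led the list. Prdx1, a peroxiredoxin that reduces hydrogen peroxide with electrons from thioredoxin, was the most abundant at a mean of 1470 ± 206 TPM in Old tumor and 1439 ± 90.4 TPM in Young tumor libraries (SD, n = 6 each). Sod1, the cytosolic copper and zinc superoxide dismutase, followed at 889 ± 173 TPM in Old tumor and 900.4 ± 97.1 TPM in Young tumor libraries. Gsto1, Gsta4 and Gpx1 came next at means of 771, 754 and 715 TPM over all 12 libraries, then Prdx2, Gstp1 and Txn1 at 580, 562 and 543 TPM and Gpx4 at 436 TPM. In each of these trios neighbouring genes differed by less than the larger of their SDs within either age. At the low end stood Slc7a11, the cystine importer subunit, at 17.5 TPM and Nqo1, the quinone reductase most often read as an NRF2 target, at 1.40 TPM. The summed level of the 34 genes lay between 8054 and 11435 TPM in Old tumor libraries and between 8236 and 10138 TPM in Young tumor libraries, so the old range enclosed the young one.

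**Figure D1:**
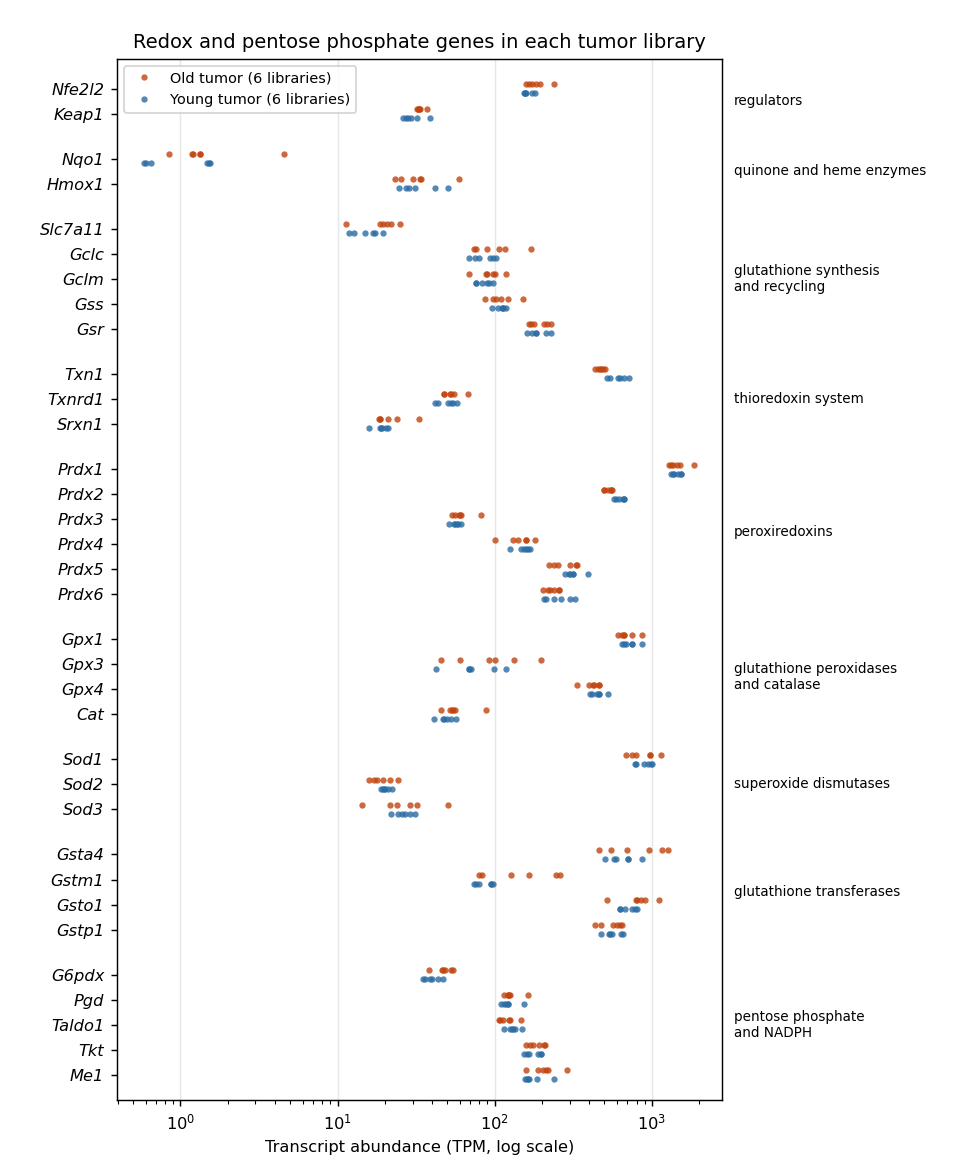
Level of each of the 34 genes in TPM on a log axis, Old tumor libraries above Young tumor libraries, with 1 point per library. By mean level the list spans from Nqo1 at 1.40 TPM to Prdx1 at 1455 TPM, and the age groups overlap for most genes.

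Between the ages, 2 of the 34 genes passed the test, thioredoxin Txn1 and peroxiredoxin Prdx2, and both were lower in old tumors. None was higher. Over all 16013 genes tested, 362 passed (2.26%), 235 of them lower (1.47%), in edgeR's quasi-likelihood test with Benjamini-Hochberg adjustment at an adjusted p under 0.05. At an unadjusted p under 0.05, 7 of the 34 genes (20.6%) stood against 21.1% of all genes tested, which is close to the background. The median log2 fold change of the 34 genes, old over young, was -0.05 with a range of -0.52 to 0.76, and the median of all genes was 0.03. On counts scaled by TMM (edgeR's correction for library composition) 22 of the 34 lay below 0 (64.7%, against 45.8% of all genes). On the log2(TPM + 1) scale 12 of the 34 did, and the median of all genes moved to 0.13. The median of the 34 genes moved to 0.06 there, so it lay below that of all genes on both scales. The share of all genes below 0 on the TPM scale was not computed.

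**Figure D2:**
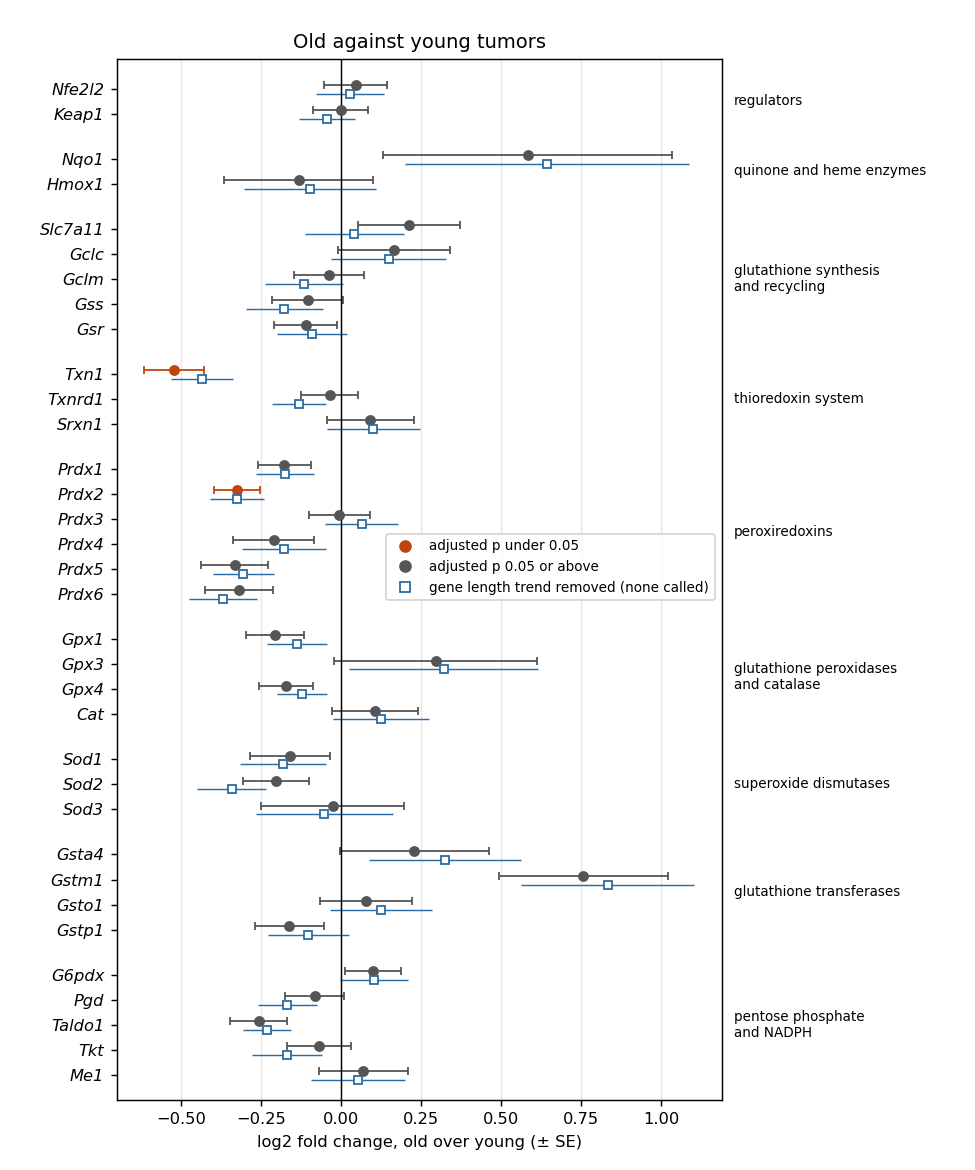
Log2 fold change of each of the 34 genes, old over young, with its standard error, grouped by role; filled circles are from edgeR and open squares from the fit with the gene length trend removed. Txn1 at -0.52 and Prdx2 at -0.32 are the genes in colour, past an adjusted p of 0.05.

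Txn1 encodes cytosolic thioredoxin, the small disulfide reductase that feeds electrons to peroxiredoxins and ribonucleotide reductase (ENSMUSG00000028367, chromosome 4, 57943373 to 57956411, GRCm38). In Old tumor libraries its lowest, median and highest values were 250.1, 273 and 304 CPM (counts scaled to TMM-adjusted library totals), against 319.7, 405 and 475 CPM in Young tumor libraries. Every old library lay below every young one, and the highest of all was Young tumor 1. The mean was 277 ± 19.6 CPM in Old tumor and 397 ± 56.0 CPM in Young tumor libraries (SD, n = 6 each), a fold of 0.697. Its log2 fold change was -0.52 with a standard error of 0.09 and an edgeR adjusted p of 0.030.

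The length of the transcript moved with this result. Over all genes, fold changes rose with exon length in these libraries, and the tenth of tested genes with the shortest exons, which holds Txn1 at 1051 bases, had a median log2 fold change of -0.18. With that trend removed the log2 fold change of Txn1 was -0.43 and its edgeR adjusted p 0.057. Over 25 alternative settings the adjusted p of Txn1 ran between 2.5e-05 and 0.075 and it passed in 15, always with the same sign. With 1 library left out at a time it passed in 5 of 12, those without Old tumor 1 or without Young tumor 2, 3, 4 or 6.

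The reductase that recharges thioredoxin, Txnrd1, did not pass, at a log2 fold change of -0.03 ± 0.09 (SE), nor did Srxn1, the sulfiredoxin that repairs overoxidised peroxiredoxins, at 0.09 ± 0.14. As a ratio of levels, Txn1 over Txnrd1 had a median of 8.73 in Old tumor libraries (6.98 to 10.6) and 11.6 in Young tumor libraries (9.83 to 17.1), with overlap between the ages. The difference between the fold changes of these genes was not tested.

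Of the 6 peroxiredoxins, the thiol peroxidases that are the main clients of thioredoxin, 1 passed the test and 5 did not. Prdx2 is the cytosolic form abundant in red blood cells and neurons (ENSMUSG00000005161, chromosome 8, 84969587 to 84974834, GRCm38). It had 278, 303 and 314 CPM at the lowest, median and highest in Old tumor libraries, against 329, 379.5 and 419 CPM in Young tumor libraries. No old library reached the lowest young one, Young tumor 4. The mean was 299 ± 15.3 CPM in Old tumor and 374 ± 34.8 CPM in Young tumor libraries (SD, n = 6 each), with a log2 fold change of -0.32, a standard error of 0.07 and an edgeR adjusted p of 0.041. Txn1 and Prdx2 were the 2 of 34 genes (5.88%) whose old libraries all lay below the young ones, against 1.97% of all genes tested.

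The edgeR call of Prdx2 is the less stable of the pair: its adjusted p ran between 3.3e-04 and 0.121 over the 25 settings, passing in 9. With 1 library left out it passed in 2 of 12, those without Old tumor 1 or Young tumor 3. With the length trend removed the edgeR adjusted p was 0.089 at the same log2 fold change of -0.32. That fit took all annotated exons of Prdx2 together, 3050 bases. Prdx2 averaged 7442 counts at 580 TPM, near the 7460 counts at 543 TPM of Txn1, whose length was 1051 bases. The length used for Prdx2 may thus be too long. The same holds for Sod1 (7184 counts at 895 TPM, 3970 bases) and Prdx1 (21184 counts at 1455 TPM, 3043 bases). The part of these lengths in the trend was not tested. Because red cells carry much Prdx2, the hemoglobin genes and Alas2 were read beside it. All 5 of these erythroid markers were tested, their summed level was 30.9 to 206 CPM in Old tumor and 36.6 to 187 CPM in Young tumor libraries, none was at 0, and their mean log2 level differed by 0.19 between the ages (adjusted exact permutation p = 0.814). Across the 12 libraries Prdx2 had an r of -0.08 with them (permutation p = 0.809, Spearman rho -0.05 with p = 0.886), and an r of 0.09 without Young tumor 2 and Young tumor 5. The r was 0.46 within Old tumor libraries (exact permutation p = 0.344) and -0.23 within Young tumor libraries (exact permutation p = 0.597).

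Prdx1 had 803, 878 and 1070.0 CPM at the lowest, median and highest in Old tumor libraries and 949.6, 995 and 1117 CPM in Young tumor libraries. Here 5 of 6 old libraries lay below the young median and Old tumor 5 above it. The log2 fold change of Prdx1 was -0.18 ± 0.08 (SE; adjusted p = 0.237 from edgeR), and on the log2(TPM + 1) scale it was 0.02. Prdx5, which works in mitochondria and peroxisomes, stood at -0.33 ± 0.10 (adjusted p = 0.094), and Prdx6, which takes its electrons from glutathione, at -0.32 ± 0.11 (adjusted p = 0.110). For each of these the young median exceeded all 6 old values. The form of the endoplasmic reticulum, Prdx4, stood at -0.21 ± 0.13, and the mitochondrial Prdx3 at -0.00 ± 0.09 with a sign that turned on the TPM scale.

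**Figure D3:**
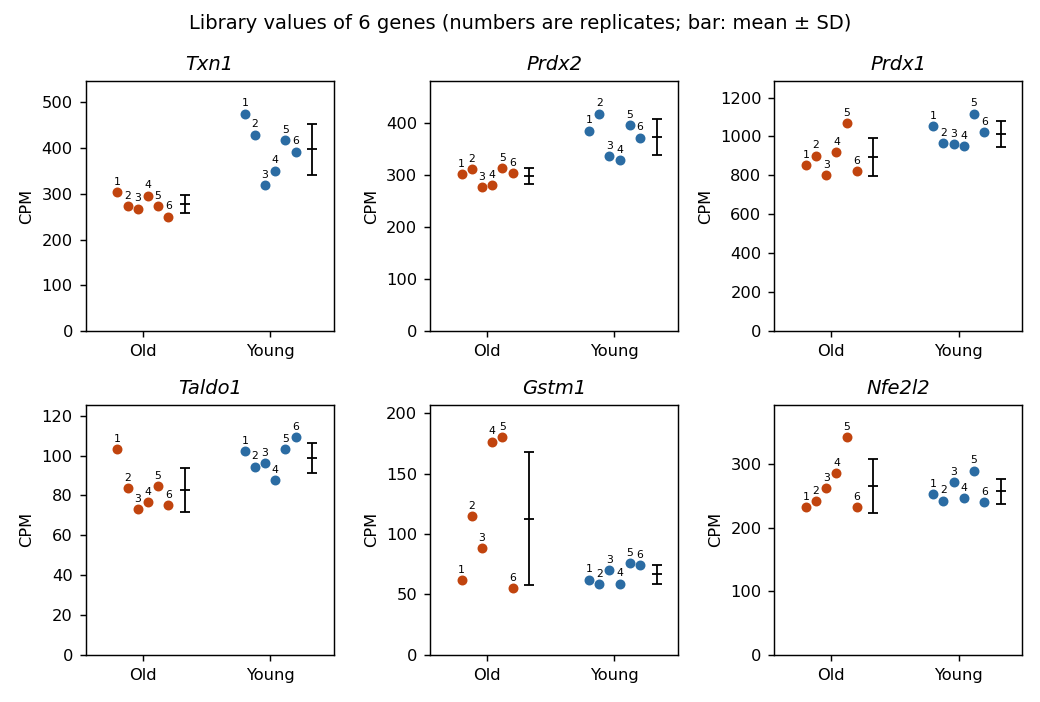
CPM of Txn1, Prdx2, Prdx1, Taldo1, Gstm1 and Nfe2l2 in each library, Old tumor to the left of Young tumor, with 1 numbered point per library and a bar for the mean ± SD (n = 6 each). The groups do not overlap for Txn1 and Prdx2 and overlap for the other 4 genes.

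Neither regulator passed. Nfe2l2 had 232, 252 and 343 CPM at the lowest, median and highest in Old tumor libraries and 241, 250.3 and 290.5 CPM in Young tumor libraries. The old range enclosed the young one, with Old tumor 5 highest. The log2 fold change of Nfe2l2 was 0.05 ± 0.10 (SE; adjusted p = 0.822 from edgeR), and Keap1, the adaptor that sends NRF2 to degradation, stood at -0.00 ± 0.09. The ratio of Keap1 to Nfe2l2 levels had a median of 0.188 in Old tumor and 0.176 in Young tumor libraries. NRF2 is regulated mainly through the stability of its protein, which RNA levels do not show.

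Neither enzyme of quinone and heme metabolism passed. Over all 12 libraries Nqo1 averaged 1.40 TPM, the lowest of the 34 genes, and Hmox1 averaged 34.1 TPM. Nqo1, which reduces quinones by a pair of electrons, had 0.743, 1.11 and 4.17 CPM at the lowest, median and highest in Old tumor libraries and 0.562, 1.04 and 1.57 CPM in Young tumor libraries. That is 18 to 100 counts per old library and 12 to 34 per young library. The value of 4.17 CPM belongs to Old tumor 4 alone, and the other 5 old libraries lay within the young range. Nqo1 had a log2 fold change of 0.58 ± 0.45 (SE; adjusted p = 0.483 from edgeR), and -0.00 without Old tumor 4. Hmox1, the inducible heme oxygenase that is also strong in macrophages, had 21.9, 28.8 and 55.5 CPM in Old tumor and 24.9, 30.8 and 49.2 CPM in Young tumor libraries, at a log2 fold change of -0.13 ± 0.23 (adjusted p = 0.786). Old tumor 1 was the highest library for Hmox1 and the groups overlapped. The value rests on single libraries: with 1 library left out it ran between -0.39, without Old tumor 1, and -0.0007, without Young tumor 6.

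None of the 5 genes of glutathione synthesis and recycling passed. Slc7a11, whose product imports the cystine from which glutathione is built, had 62.3, 109 and 137 CPM at the lowest, median and highest in Old tumor libraries and 75.2, 92.1 and 115 CPM in Young tumor libraries. Although 5 of 6 old libraries exceeded the young median, Old tumor 1 was the lowest of all 12, and the log2 fold change of 0.21 ± 0.16 (SE) had an edgeR adjusted p of 0.466. Gsr, the reductase that returns oxidised glutathione to its thiol form, had 264, 299 and 355 CPM in Old tumor and 279, 329 and 379.8 CPM in Young tumor libraries. The old range began and ended lower but overlapped most of the young one (log2 fold change -0.11 ± 0.10, adjusted p = 0.553; 0.02 on the log2(TPM + 1) scale). Gclc and Gclm, the catalytic and modifier subunits of glutamate-cysteine ligase, stood at 0.17 ± 0.18 and -0.04 ± 0.11, and Gss, glutathione synthetase, at -0.10 ± 0.11. Gclm shares a stretch of 287 bases with Ppia, an abundant gene, at an identity of at least 97%, so its counts are uncertain.

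Glutathione peroxidases and catalase gave no call. Gpx1, the main cytosolic glutathione peroxidase, had 235, 270.2 and 334 CPM at the lowest, median and highest in Old tumor libraries and 283, 316 and 357 CPM in Young tumor libraries. The Old tumor 5 value was the only old one above the young median. Its log2 fold change of -0.21 ± 0.09 (SE) had an edgeR adjusted p of 0.211. Gpx4, which reduces lipid peroxides and guards against ferroptosis, stood at -0.17 ± 0.08, and its young median exceeded all 6 old values. Gpx3, a secreted form, stood at 0.30 ± 0.32 and Cat, the peroxisomal catalase, at 0.11 ± 0.13. For both of these the sign rested on single libraries: Gpx3 stood at -0.02 without Old tumor 1, and Cat at -0.03 without Old tumor 5.

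The superoxide dismutases did not pass either. Sod2, the mitochondrial manganese enzyme, had 34.7, 42.0 and 53.9 CPM at the lowest, median and highest in Old tumor libraries and 45.7, 50.6 and 53.3 CPM in Young tumor libraries. Old tumor 5 was the highest of all libraries and Old tumor 6 the lowest, while the young libraries lay close together. Between the ages Sod2 differed by a log2 fold change of -0.20 ± 0.10 (SE; adjusted p = 0.282 from edgeR). Sod2 overlaps or resembles other transcripts over as much as 3110 bases, most of them counted to Rps6ka2, and those genes held 40.3% as many counts, so its level is uncertain. Sod1 had 243, 299.6 and 390.0 CPM in Old tumor and 283.5, 353 and 381 CPM in Young tumor libraries (log2 fold change -0.16 ± 0.12, adjusted p = 0.487). Sod3, the extracellular form, stood at -0.03 ± 0.22, at -0.25 without Old tumor 5, at -0.39 without Old tumor 1 and Old tumor 5, and at 0.01 on the log2(TPM + 1) scale.

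Of the 4 glutathione transferases, which couple glutathione to electrophiles, none passed, and Gstm1 had the widest difference of all 34 genes. Gstm1 had 55.4, 102 and 179.9 CPM at the lowest, median and highest in Old tumor libraries and 58.6, 66.2 and 76.1 CPM in Young tumor libraries. In 4 old libraries it exceeded every young one, and in Old tumor 1 and Old tumor 6 it was below the young median. Its log2 fold change was 0.76 ± 0.26 (SE) with an edgeR adjusted p of 0.125, and over the 25 settings the adjusted p ran between 0.038 and 0.399, passing in 2, DESeq2 and the fit without Old tumor 1. Gsto1, the omega class enzyme with thiol transferase activity, had 346.5, 530.1 and 744 CPM in Old tumor and 454, 506 and 605 CPM in Young tumor libraries. The old range enclosed the young one (log2 fold change 0.08 ± 0.14, adjusted p = 0.794), and without Old tumor 4, the highest library, the value was -0.03. Gsta4, which clears 4-hydroxynonenal, stood at 0.23 ± 0.23 and Gstp1, the pi class enzyme, at -0.16 ± 0.11. Gstp1 resembles Gstp2, and genes of similar sequence held 2.49% as many counts.

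No gene of the pentose phosphate pathway or of NADPH supply passed. Taldo1, transaldolase of the non-oxidative branch, had 72.9, 80.2 and 103 CPM at the lowest, median and highest in Old tumor libraries and 87.5, 99.3 and 109 CPM in Young tumor libraries. Old tumor 1 was the only old library to exceed the young median. Without Old tumor 1, and without both Old tumor 1 and Old tumor 5, the gene passed the edgeR test, which it did not with all libraries (log2 fold change -0.26 ± 0.09 (SE), adjusted p = 0.122, with a range of 0.017 to 0.397 over the settings). Me1, the cytosolic malic enzyme, had 313, 389.5 and 505 CPM in Old tumor and 323, 347 and 537 CPM in Young tumor libraries, with 5 of 6 old libraries above the young median (log2 fold change 0.07 ± 0.14, adjusted p = 0.812). G6pdx, the X-linked glucose-6-phosphate dehydrogenase that commits glucose to the pathway, stood at 0.10 ± 0.09, and Pgd, the next NADPH-yielding step, at -0.08 ± 0.09. Tkt, transketolase, stood at -0.07 ± 0.10. Pgd and Tkt were above 0 on the log2(TPM + 1) scale, both at 0.06.

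The old libraries varied more than the young ones in most of the 34 genes. The SD of log2 CPM was larger in Old tumor than in Young tumor libraries for 29 of the 34 genes (85.3%), against 54.4% of all genes tested, with a median SD of 0.23 in Old tumor and 0.16 in Young tumor libraries. The exceptions were Txn1, Prdx2, Prdx6, Keap1 and Me1, named after their values were seen. Gstm1 had an SD of 0.73 in Old tumor and 0.17 in Young tumor libraries, and Sod3 one of 0.62 in Old tumor and 0.13 in Young tumor libraries. With total-count scaling the SD was larger in old for 25 of the 34 genes (73.5%, against 53.8% of all genes). On the log2(TPM + 1) scale it was larger for 30 (88.2%, against 54.6%). Genes measured in the same libraries are not independent of each other, so 29 is a description and was not tested.

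Old tumor 5 and Old tumor 1 were often at the ends of the range. Leaving out libraries seen to lie far out tends to lower the spread of the old group by design. Old tumor 5 was the highest of the 12 libraries for 13 of the 34 genes, where it was highest for 16.3% of all genes tested, and it was above the mean of the other libraries in 27 of 34, by a median of 0.23 on the log2 scale (55.6% and 0.05 over all genes). All 3 superoxide dismutases and 3 of 5 genes of glutathione synthesis and recycling had their highest value there. Old tumor 1 was the lowest library for 11 of the 34 genes and for 8.22% of all genes. It was the highest for all 8 fibroblast, all 6 endothelial and 7 of 8 macrophage markers, against 14.0% of all genes. Of the epithelial markers it was highest for 0 of 9, and of the T cell markers for 1 of 8. The part of its cell mix in the low values of the 34 genes was not tested. Without Old tumor 5 the SD was larger in old for 22 of the 34 genes (45.5% of all genes), without Old tumor 1 for 25 (47.9%), and without both for 20 (36.6%), each above the share over all genes. Without both libraries 31 of the 34 genes kept the sign of their fold change, Txn1 at -0.54 and Prdx2 at -0.33 among them. The other 3 were Gpx3 at -0.20, Srxn1 at -0.03 and Nfe2l2 at -0.0024, named after their values were seen, and none of these passed with all libraries.

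**Figure D4:**
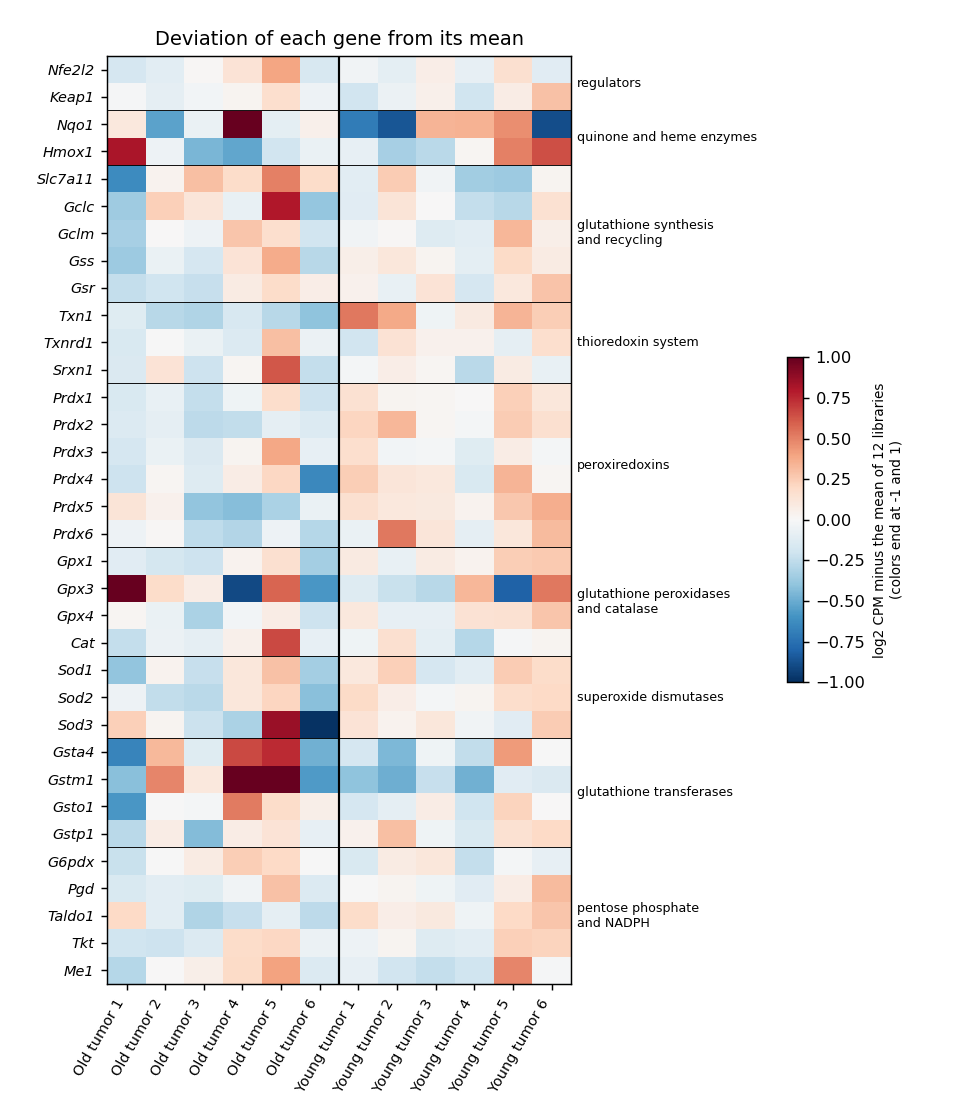
Deviation of each of the 34 genes from its mean over 12 libraries, in log2 CPM, with genes in rows by role and Old tumor libraries in the columns left of Young tumor libraries; colours end at -1 and 1. Old tumor 5 is above the mean of the others in 27 of 34 genes, and Old tumor 1 is the lowest library for 11.

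**Figure D5:**
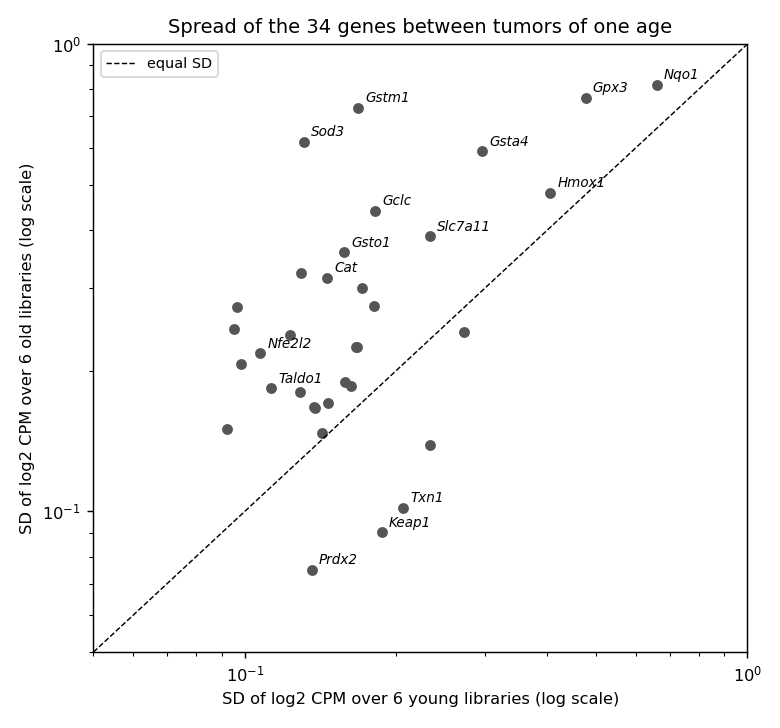
SD of log2 CPM over the 6 Old tumor libraries (vertical axis) against the 6 Young tumor libraries (horizontal axis), 1 point per gene, with the line of equality. Above the line lie 29 of the 34 genes, and Txn1 and Prdx2 lie below it.

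Of 101 further genes listed for NRF2 partners and targets, glutathione, thioredoxin folds, NADPH, metallothioneins and NADPH oxidases, 98 were tested, 2 passed and both were lower in old tumors, where 2.26% of all genes tested passed. Their median log2 fold change was -0.07, against 0.03 over all genes, with 58.2% below 0 (45.8% of all genes). An unadjusted p under 0.05 was found for 19.4% of them and 21.1% of all genes, so neither the calls nor these p-values exceed the background. Glrx5, the mitochondrial glutaredoxin of iron-sulfur cluster assembly, averaged 29.1 ± 2.94 CPM in Old tumor and 39.1 ± 3.55 CPM in Young tumor libraries (SD, n = 6 each; log2 fold change -0.42, edgeR adjusted p = 0.034). Its highest old value, 31.9 CPM, lay below its lowest young value, 33.1 CPM. Atox1, the chaperone that hands copper to export pumps, averaged 34.7 ± 4.25 CPM in Old tumor and 46.8 ± 5.29 CPM in Young tumor libraries (log2 fold change -0.43, adjusted p = 0.041), with overlap through Old tumor 1.

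With the length trend removed, Glrx5 stood at -0.44 with an edgeR adjusted p of 0.042 and Atox1 at -0.28 with 0.102. Among the NRF2 partners and rivals, Rbx1, the RING subunit of the ligase that ubiquitinates NRF2, stood at -0.31 (adjusted p = 0.051) and Bach2, a rival repressor, at 0.39. The other NRF2 targets were led in p by Blvra, biliverdin reductase, at -0.28 and Abcc4, an export pump, at 0.19. In the glutathione list Oplah, 5-oxoprolinase, followed Glrx5 at 0.32. The other glutathione transferases were led by Gstt2 at -0.76 and Gstm3 at 1.29, both under 6 CPM in every library. For thioredoxin folds and sestrins the leaders were Sesn3 at 0.21 and Txn2, mitochondrial thioredoxin, at -0.23. Mthfd2 and Aldh1l1, folate enzymes that handle NADPH or NADH, stood at -0.50 and -0.35. Mt1, a metallothionein, stood at -0.31, and of the NADPH oxidase genes Cyba stood at -0.24 and Nox1 at -0.63. Apart from Glrx5 and Atox1 none of these passed the test.

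Over the 12 libraries, 12 relations of these genes with each other or with marker lists were computed, and none passed adjustment by permutation (smallest adjusted p = 0.280). Gclc and Gclm, the 2 subunits of 1 enzyme, had an r of 0.36 (permutation p = 0.249) and a Spearman rho of 0.45 (p = 0.141), with r 0.62 within Old tumor and -0.29 within Young tumor libraries and 0.12 without Old tumor 5 and Old tumor 6. Gpx3 had an r of 0.64 with the adipocyte markers (permutation p = 0.023, adjusted p = 0.280) and a rho of 0.47 (p = 0.127). That relation was 0.85 within Old tumor libraries (exact permutation p = 0.017), 0.13 within Young tumor libraries, and 0.44 without Old tumor 1 and Old tumor 4. Only 2 of the 6 adipocyte markers were tested and enter it, and Old tumor 1 was the highest library for both and for Gpx3. Hmox1 had an r of 0.48 with the macrophage markers (permutation p = 0.115) and a rho of 0.23 (p = 0.469), with r 0.84 within Old tumor and -0.12 within Young tumor libraries. The r was -0.31 without Old tumor 1 and Young tumor 6, so it rests on those libraries. Nqo1 had an r of 0.50 with the epithelial markers (permutation p = 0.10) and a rho of 0.64 (p = 0.029, adjusted p = 0.350), with r 0.52 within Old tumor and 0.74 within Young tumor libraries and 0.60 without Old tumor 4 and Young tumor 6.

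None of 13 marker lists differed between the ages past adjustment. The widest difference was that of the acinar markers, of which 2 of 10 were tested: their mean log2 level was 1.26 in Old tumor and 2.45 in Young tumor libraries (exact permutation p = 0.089, adjusted p = 0.331). Their summed level was 12.2 to 18.9 CPM in Old tumor and 12.6 to 65.6 CPM in Young tumor libraries, and Cpa1, Cpb1, Cela2a, Cela3b, Pnlip, Amy2a5 and Cel were at 0 in at least 1 library. With the acinar score as a covariate in edgeR, Txn1 stood at -0.59 (adjusted p = 0.075) and Prdx2 at -0.33 (adjusted p = 0.121), so both kept their size and lost their call. The 2 tested of 6 adipocyte markers were 1.02 higher on the log2 scale in old libraries (exact permutation p = 0.013, adjusted p = 0.169), with a summed level of 21.8 to 235 CPM in Old tumor and 15.4 to 29.2 CPM in Young tumor libraries, and Adipoq, Plin1, Lep and Retn at 0 in at least 1 library. All 8 T cell markers were tested and lay 0.96 lower in mean (exact permutation p = 0.039, adjusted p = 0.253), with 6.60 to 28.0 CPM in Old tumor and 16.9 to 40.4 CPM in Young tumor libraries and none at 0. The 8 fibroblast markers summed to 1230.0 to 9558 CPM in Old tumor and 1401 to 3512 CPM in Young tumor libraries (0.46 higher in mean, adjusted p = 0.464). The 6 endothelial markers summed to 82.9 to 339 CPM in Old tumor and 91.0 to 132 CPM in Young tumor libraries (0.55 higher in mean, adjusted p = 0.331), and the 9 epithelial markers to 5081 to 8257 CPM in Old tumor and 5332 to 9975 CPM in Young tumor libraries (0.19 lower in mean, adjusted p = 0.685). The part of the other cell types in the levels of Txn1, Prdx2 and Gstm1 was not tested.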

How the data were processed

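Per the labels' protocols, RNA with an integrity number above 8 was poly(A)-selected and made into NEBNext Ultra Directional libraries. Per the submitters' processing notes, reads were trimmed with cutadapt 2.3, aligned with STAR 2.7.0d to build mm10 and passed to RSEM 1.3.1; for annotation and strand setting, none is given in the sources used here, so reads of a gene and of an overlapping antisense gene may not be separated. The authors deposited expected counts (estimated counts, not normalized) and TPM values for 12 libraries. Expected counts were rounded to whole numbers and tested with edgeR 4.0.16 in R 4.3.3 (TMM, filterByExpr, quasi-likelihood F test, Benjamini-Hochberg adjustment over 16013 genes, two-sided, adjusted p under 0.05). The standard error is the size of the log2 fold change divided by the square root of F, and log2 CPM used a prior count of 2. Counts limit the precision of low genes such as Nqo1, and library totals were 17.8M to 24.1M.

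The members and all lists were chosen with earlier results of these data known. Described in full are members past the threshold and, in each role group, the member with the smallest p and that with the highest mean TPM; of the further genes, those past the threshold and the 2 with the smallest p in each list. Library groups came from the labels. Marker lists were scored as mean log2 CPM and compared over 924 splits by exact permutation, two-sided; correlations used 100000 permutations over all libraries and exact permutation within an age (scipy 1.17.1). The length correction used the joined length of all annotated exons of a gene, from a GENCODE annotation of GRCm38, found for 15971 tested genes. It entered as an offset through a natural spline with 4 degrees of freedom. Similar transcripts share at least 97% identity over at least 100 bases. Replicate numbers were checked for pairing: 2 of 6 same-numbered pairs had a correlation of deviations over 0.1 (range -0.23 to 0.14). The check showed no pairing by number, but it would miss a weak shared source, and the labels tie no libraries by number. Alternatives were DESeq2 1.42.0, voom from limma 3.58.1 with quality weights, scaling by total count, RLE or upper quartile, no filter or 1 CPM in 6 libraries, log2 TPM plus 1 or 0.1, a covariate for the acinar score, length correction, a replicate block, other thresholds and libraries left out; those for the spread were added after seeing the data. On simulated counts of 16013 genes for this comparison, edgeR recovered 46%, 78%, 96% and 96% of genes changed by 1.5, 2, 4 and 8 fold, with 6.51% of its calls unchanged genes.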

Additional observations from a re-analysis of the deposited data

Results flagged for a closer look

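Of 68 group checks of the 34 genes, each over 6 libraries, 7 had a highest or lowest library set apart from the rest. The gap, taken on log2 CPM, was above Dixon's critical share of the group's range, and the values below are in CPM. Chance sets apart about 1 in 20 groups where values are normal, and these groups are not independent of each other. In all 7 the library set apart was the highest. Nqo1 stood at 4.17 CPM in Old tumor 4, with the next old library at 1.21 CPM. Hmox1 stood at 55.5 CPM in Old tumor 1, with the next at 30.4 CPM. Old tumor 5 gave 4 of the 7: Txnrd1 at 134 CPM (next 108 CPM), Prdx3 at 68.2 CPM (next 53.1 CPM), Cat at 133 CPM (next 87.5 CPM) and Pgd at 206.0 CPM (next 164 CPM). Me1 stood at 537 CPM in Young tumor 5, with the next young library at 379 CPM. The 7 genes include 1 in a young library, and none of them passed the test between ages.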

How the results depend on the processing

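Against 362 genes and 2 of the 34 members at the edgeR test, DESeq2 called 1439 genes and 5 members (Txn1, Prdx2, Prdx5, Prdx6 and Gstm1), limma-voom 977 genes and 3 members (Txn1, Prdx2 and Taldo1), and no filter 151 genes and 1 member (Txn1). RLE, upper-quartile and total-count scaling and the stricter filter gave the same 2 members. With the length trend removed 111 genes and 0 members passed, and with the acinar score as a covariate 1 gene and 0 members. The replicate block left 1 gene and 0 members. The labels do not say whether its numbers pair the libraries, and 1 of 6 old libraries correlated best with its own number. At an adjusted p under 0.01, 1 gene and 0 members passed, and under 0.1, 1256 genes. On log2(TPM + 1) and log2(TPM + 0.1) 1 member passed, Txn1, and 85.8% and 87.6% of the 339 and 356 genes called were higher in old libraries, against 35.1% of the 362; with total-count scaling that share was 51.5% of 295. Without Old tumor 1 and Old tumor 5, 742 genes and 3 members passed. Leaving out 1 library at a time gave 2 genes (without Old tumor 3) to 1106 genes (without Old tumor 1), and 0 to 5 members: 0 without any 1 of Old tumor 2, 3, 4, 5 and 6 and Young tumor 1 and 5; Txn1 without Young tumor 2, 4 or 6; both without Young tumor 3; and 5 without Old tumor 1. The cause of these changes was not tested.

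Txn1 and Prdx2 kept their sign under all 25 alternatives. None of the following sign changes is of a gene that passed the test. On log2(TPM + 1) and log2(TPM + 0.1) values turned above 0 for Keap1 (0.15, 0.16), Prdx3 (0.12, 0.12), Gclm (0.11, 0.11), Txnrd1 (0.10, 0.10), Pgd (0.0591, 0.0595), Tkt (0.0579, 0.0582), Gsr (0.0241, 0.0242), Prdx1 (0.0222, 0.0222), Gss (0.0105, 0.0105) and Sod3 (0.0092, 0.0063). With total-count scaling Keap1 stood at 0.0277 and Prdx3 at 0.022, with the replicate block Keap1 at 0.0074, and with the length trend removed Prdx3 at 0.0647. With limma-voom Gpx3 stood at -0.0282 and Nfe2l2 at -0.0024. Without Old tumor 1 and Old tumor 5, Gpx3 stood at -0.20, Nfe2l2 at -0.0024 and Srxn1 at -0.0256. With 1 library left out, the log2 fold change ranged over -0.0319 to 0.14 for Cat, -0.0076 to 0.24 for Gclc, -0.10 to 0.0305 for Gclm, -0.0232 to 0.45 for Gpx3, -0.0327 to 0.16 for Gsto1, -0.0391 to 0.0639 for Keap1, -0.0275 to 0.0834 for Nfe2l2, -0.0035 to 0.74 for Nqo1, -0.0839 to 0.0243 for Prdx3, -0.25 to 0.11 for Sod3 and -0.0397 to 0.14 for Srxn1. Marker list differences ranged over -0.06 to 0.51 for erythroid, -0.0389 to 0.22 for hypoxia and stress, -0.10 to 0.15 for macrophage and -0.38 to 0.0023 for neutrophil genes. The r of Cat with adipocyte markers ranged over -0.34 to 0.41 and was 0.12 on log2(TPM + 1), that of Prdx2 with erythroid markers over -0.22 to 0.21, and that of Tkt with Taldo1 was -0.13 on log2(TPM + 1).

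With 6 libraries a group and pieces that vary, changes of 1.5 fold are recovered less often than larger ones, so a gene not called here may still differ. Among the 34 genes Nqo1 has the fewest counts, 12 to 100 a library, and the least precise fold change.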
